A study of Mus musculus with 40 samples.

Results

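The genes described here encode enzymes of the citrate cycle, its anaplerotic side reactions and the malate-aspartate shuttle. They were chosen by name, 30 genes of the 16593 genes with a named probe on the arrays, and the probe with the highest mean log2 intensity stood for each gene. A probe was measured for 29 of them, and Sdha was not analysed here. Of these, 27 were bright enough to be tested, while Ogdhl and Me3 stayed too close to the array median and are given as values only.

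The 40 mice were males of the C57BL/6J strain, and their heart RNA, taken at 9 weeks of age, was measured on Illumina MouseRef-8 beadchips with 1 array for each animal. The mice fell into 4 groups of 10. HF_HF mice were fed a high-fat diet after weaning and were born to high-fat-fed dams. LF_HF mice were fed the same high-fat diet but were born to low-fat-fed dams. HF_LF and LF_LF mice were fed the low-fat diet after weaning and came from high-fat-fed and low-fat-fed dams. The dam's diet is thus written first, and it ran from before mating through pregnancy until weaning. Each dam's diet was spread over 6 cages of dams, so that hearts of a group that came from 1 cage were not independent. The arrays correlated at 0.9445 to 0.9960 over all probes. Of 8 cardiomyocyte markers 7 were measured, and all 7 exceeded the array median in 40 of 40 hearts, with the myosin gene Myh6 at 18714 to 26402 intensity units. By scores of marker genes, signal of liver, exocrine pancreas, skeletal muscle or fat stood out in 15 hearts. The markers of a list did not all move together: of the liver list, Apoa2 ranged from 86.5 to 17626, while Alb and Fgb exceeded the array median in 0 of 40 hearts. The dim probes also divided the arrays into sets of 25 and 15, which the labels do not name. Every group had hearts in both sets. The hearts also differed in atrial signal, for which all 8 listed markers were measured. The median intensity of the atrial myosin light chain gene Myl7 was 5253 in HF_HF, 2460 in LF_HF, 10270 in HF_LF and 379.2 in LF_LF hearts. The atrial score, the mean log2 level of the 8 genes relative to their medians over the hearts, averaged -0.14 in HF_HF, -1.13 in LF_HF, 0.20 in HF_LF and -1.08 in LF_LF hearts. Both means were higher with HF-fed dams. Because whole hearts were measured, fewer cells of a type and less RNA in each cell cannot be told apart.

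The citrate cycle oxidises acetyl-CoA in the mitochondrial matrix and passes the electrons to the respiratory chain, mostly as NADH. The heart draws most of that acetyl-CoA from fatty acids, and its mitochondria fill a large part of each cardiomyocyte. Anaplerotic enzymes such as pyruvate carboxylase refill the intermediates of the cycle. The malate-aspartate shuttle carries the electrons of cytosolic NADH into the matrix through a pair of malate dehydrogenases, a pair of aspartate aminotransferases and 2 kinds of carrier.

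The first question was whether the diet of the dam or the diet after weaning altered the RNA levels of these genes. Only Sucla2 passed, and only when the post-weaning effect was averaged over both kinds of dam. In that comparison 947 of 12645 tested probes passed a false discovery rate of 5% in limma, or 7.49%, against 1 of 27 genes of the cycle. An unadjusted p below 0.05 was reached by 8 of the 27 genes (29.6%), close to the 24.6% of all 8749 tested genes. The share of members that passed was therefore no higher than the background.

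Between single pairs of groups, 0 of the 27 genes passed in limma. In offspring of LF-fed dams the post-weaning comparison of LF_HF with LF_LF hearts called 2.72% of all probes, and 9 of the 27 genes (33.3%) had an unadjusted p below 0.05, against 22.4% of all tested genes. In offspring of HF-fed dams the comparison of HF_HF with HF_LF hearts called 0.862% of all probes, and 0 of the 27 genes had an unadjusted p below 0.05, against 8.77% of all tested genes. The maternal effect in HF-fed offspring, HF_HF against LF_HF, called 0% of all probes. Here 4 of the 27 genes (14.8%) had an unadjusted p below 0.05, and 12% of all tested genes did. The maternal effect in LF-fed offspring, HF_LF against LF_LF, called 0.0395% of all probes, and 0 of the 27 genes had an unadjusted p below 0.05, against 4.41% of all tested genes. Averaged over the post-weaning diets, the maternal effect called 0.388% of probes and 0 of the 27 genes, with 1 unadjusted p below 0.05 among them (10.7% of all tested genes). The interaction of the diets called 0% of probes and 0 of the 27 genes, with 0 unadjusted p below 0.05 among them (3.07% of all tested genes). These comparisons share groups, so each is given with its own values.

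The median log2 fold change of the 27 genes was 0.07 in LF_HF against LF_LF hearts and 0.03 in HF_HF against HF_LF hearts, beside medians near 0 for all tested genes. It was -0.03 in HF_HF against LF_HF hearts, where 19 of the 27 genes had a negative value against 51.4% of all genes. In HF_LF against LF_LF hearts the median was -0.0026 and 14 of the 27 genes were negative.

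**Figure D1:**
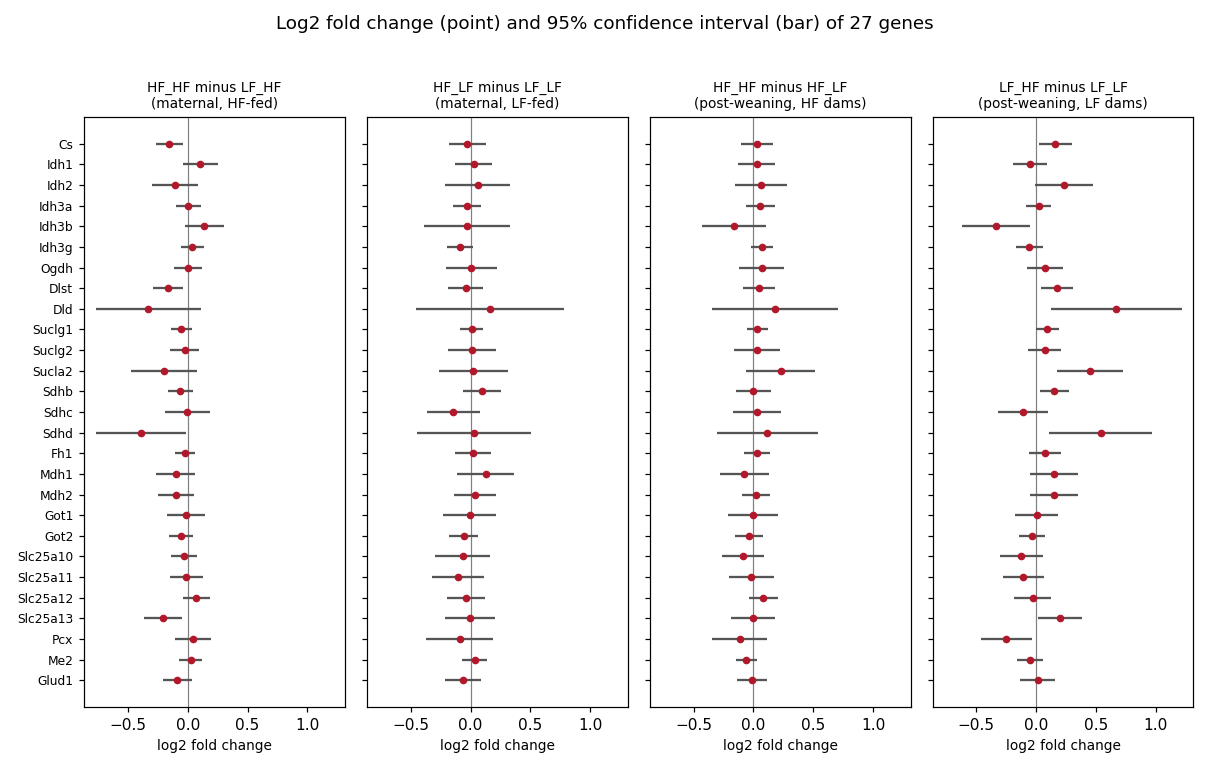
Log2 fold change of the 27 tested genes (points) with 95% confidence intervals (bars), one panel for each pair of groups and 10 hearts in each group. The widest intervals belong to Dld and Sdhd, and the last 2 panels show the post-weaning diet, where Sucla2 lies at 0.23 with HF-fed dams and 0.45 with LF-fed dams.

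Sucla2 encodes the subunit that makes succinyl-CoA ligase specific for ADP, so that its step yields ATP in the matrix. Its intensity in HF_HF hearts had a lowest, median and highest value of 88.6, 137.1 and 200.3, against 86.5, 109.4 and 170.6 in HF_LF hearts. In LF_HF hearts these values were 111.8, 153.6 and 176.9, against 79.8, 99.2 and 156.5 in LF_LF hearts. All 10 LF_HF hearts lay above the LF_LF median, and 5 of them above the highest LF_LF heart, while the other LF_HF hearts overlapped with LF_LF. Sucla2 rose by 0.34 ± 0.10 (SE) on the log2 scale with the high-fat diet after weaning, averaged over the dams (limma, adjusted p = 0.0314). Its rank by p was 701 among the 12645 probes. By pairs of groups the log2 fold change was 0.45 ± 0.13 in offspring of LF-fed dams (limma, adjusted p = 0.0689) and 0.23 ± 0.14 in offspring of HF-fed dams (limma, adjusted p = 0.767). The difference between these effects was tested as the interaction and had an adjusted p of 0.943 in limma, with an estimate of -0.22 and a 95% interval from -0.63 to 0.19. Offspring on both diets came from 5 cages of dams. In 5 of 5 Sucla2 was higher in the HF-fed than in the LF-fed offspring, by 0.14 to 0.51 on the log2 scale. A difference of 1 sign in all these cages was not unique to Sucla2. Ogdh, which was not called, was also higher in 5 of 5, by 0.02 to 0.45. Pcx, not called either, was higher in 0 of 5, with differences of -0.72 to -0.07. The other tested genes of the cycle differed in sign between cages. The share of all tested probes with 1 sign in all 5 cages was not computed.

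The call for Sucla2 rested on a dim probe, since the arrays had medians of 79.2 to 79.5. It was kept in 12 of 17 other settings and lost in 5, in which the log2 fold change was 0.29 to 0.37 and the adjusted p 0.0504 to 0.622. Over all 17 settings the log2 fold change ran from 0.21, with a component of variation across the whole array as a covariate, to 0.71 with background subtracted. Within the sets of 25 and 15 arrays the log2 fold change was 0.32 and 0.36 (limma, adjusted p = 0.107 and 0.622). Once the 15 hearts with a high score of another tissue were set aside it was 0.37 (limma, adjusted p = 0.116). With an adipocyte score, the mean log2 level of fat cell genes, as a covariate it was 0.33 (limma, adjusted p = 0.0455).

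**Figure D2:**
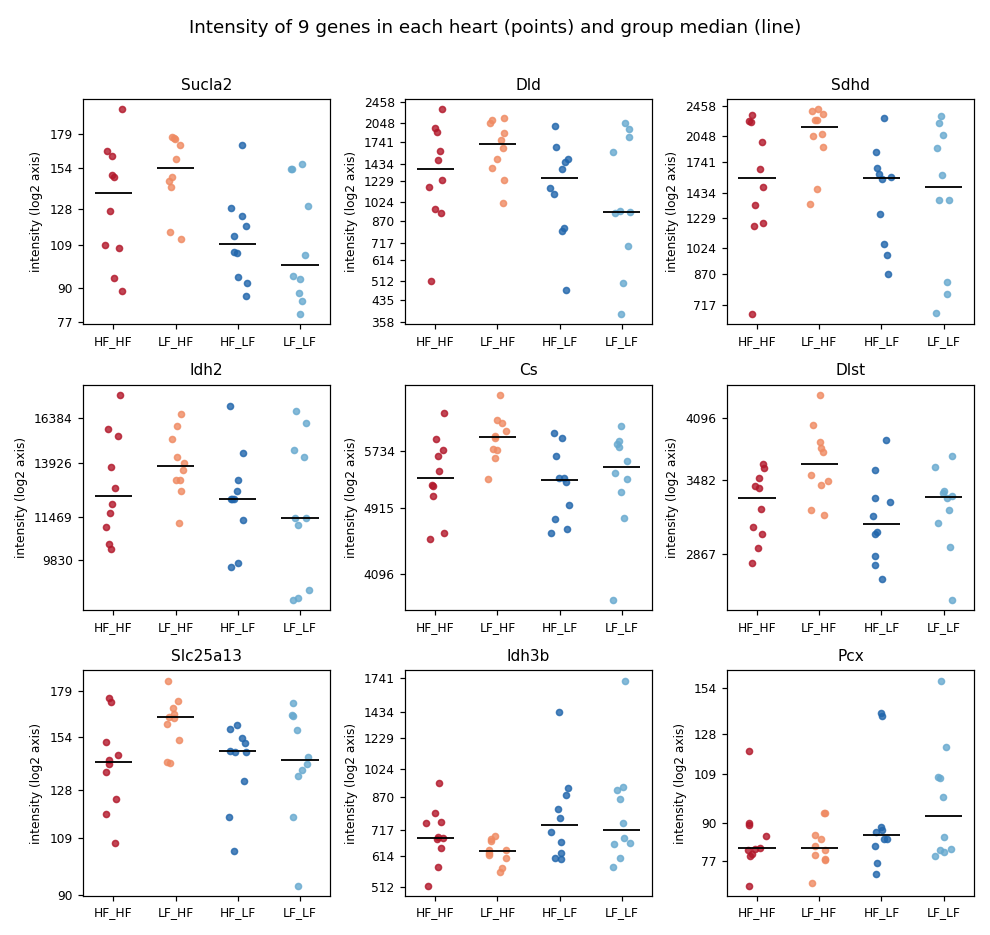
Intensity of 9 genes on a log2 axis in each heart (points) with the group median (line), 10 hearts in each of the 4 groups. The LF_HF hearts of Sucla2 lie at 111.8 to 176.9 and the LF_LF hearts at 79.8 to 156.5, and for Dld the LF_HF hearts lie at 1018 to 2144 and the LF_LF hearts at 384.5 to 2047.

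Citrate synthase, encoded by Cs, condenses acetyl-CoA with oxaloacetate and is widely used as a marker of mitochondrial content. Its median intensity was 5335 in HF_HF, 5966 in LF_HF, 5300 in HF_LF and 5490 in LF_LF hearts. HF_HF hearts ran from 4515 to 6370 and LF_HF hearts from 5309 to 6688. Of the 10 HF_HF hearts, 5 lay below the lowest LF_HF heart and 1 above the LF_HF median. The log2 fold change of Cs was -0.15 ± 0.06 (SE) in HF_HF against LF_HF hearts (limma, adjusted p = 0.328) and 0.16 ± 0.07 in LF_HF against LF_LF hearts (limma, adjusted p = 0.17). LF_HF hearts were the highest group in both comparisons, which they share. With the atrial score as a covariate these estimates of Cs were -0.16 and 0.16. For Dlst they were -0.17 and 0.17, for Sdhd -0.36 and 0.54 and for Slc25a13 -0.17 and 0.20, each given for HF_HF against LF_HF hearts and then for LF_HF against LF_LF hearts.

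The isocitrate dehydrogenases make 2-oxoglutarate. Idh3a, Idh3b and Idh3g encode the subunits of the NAD-dependent enzyme of the cycle. The catalytic Idh3a varied little, with medians of 2492, 2520, 2391 and 2412 in HF_HF, LF_HF, HF_LF and LF_LF hearts. Its log2 fold changes ran from -0.03 to 0.06 over the 4 pairs of groups, each with an SE of 0.05 to 0.06 (limma, adjusted p = 0.815 to 0.996). Idh3g had medians of 8181, 7806, 7622 and 8139 in the same order of groups, and its estimate of -0.09 ± 0.05 (SE) had the smallest p of the 27 genes for the maternal effect in LF-fed offspring (limma, adjusted p = 0.996). Sdhc at -0.14 and Sdhb at 0.09 came next there, with the same adjusted p. Idh3b differed from its partners. Its intensity had a lowest, median and highest value of 559.6, 630.9 and 690.0 in LF_HF hearts, against 577.4, 713.6 and 1718 in LF_LF hearts. The log2 fold change was -0.33 ± 0.14 (limma, adjusted p = 0.163), and a single LF_LF heart lay far above the others. HF_HF hearts ran from 516.4 to 942.1 around 682.9 and HF_LF hearts from 603.1 to 1428 around 737.6. Idh1 and Idh2 encode the NADP-dependent enzymes of the cytosol and the matrix. Idh1 had medians of 725.5, 704.2, 747.7 and 708.1 and Idh2 of 12355, 13763, 12249 and 11431 in HF_HF, LF_HF, HF_LF and LF_LF hearts.

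The 2-oxoglutarate dehydrogenase complex consists of Ogdh, the succinyltransferase Dlst and the lipoamide dehydrogenase Dld, which pyruvate dehydrogenase also uses. Ogdh had medians of 3409, 3357, 3216 and 3257 in HF_HF, LF_HF, HF_LF and LF_LF hearts, and its 4 log2 fold changes ran from 0.0012 to 0.08, with SEs of 0.06 to 0.10 (limma, adjusted p = 0.557 to 0.996). Its relative Ogdhl stayed at 64.5 to 88.2 over all hearts and was not tested. Dlst had a lowest, median and highest value of 2798, 3321 and 3625 in HF_HF hearts, against 3175, 3634 and 4350 in LF_HF hearts. Its log2 fold change of -0.17 ± 0.06 (SE) had the smallest p of the 27 genes in this comparison (limma, adjusted p = 0.325). HF_LF and LF_LF hearts had Dlst medians of 3104 and 3326, and LF_HF over LF_LF hearts gave 0.17 ± 0.06 (limma, adjusted p = 0.134).

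Dld was the most variable of the 27 genes, with an SD of 0.64 on the log2 scale between hearts of a group within a set of arrays. Over all hearts of a group the SD was 0.64 in HF_HF, 0.36 in LF_HF, 0.61 in HF_LF and 0.84 in LF_LF. Its lowest, median and highest intensities were 1018, 1707 and 2144 in LF_HF hearts, against 384.5, 943.8 and 2047 in LF_LF hearts. HF_HF hearts ran from 513.0 to 2319 around 1365 and HF_LF hearts from 474.5 to 1993 around 1262. LF_HF hearts were thus without the low values that some hearts of every other group had. The log2 fold change of LF_HF over LF_LF was 0.67 ± 0.26 (SE), the largest of the 27 genes, yet its 95% interval from 0.13 to 1.22 was wide (limma, adjusted p = 0.147).

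At the probes in use, the other subunits of succinyl-CoA ligase moved little. Suclg1 encodes the alpha subunit shared by both forms of the enzyme and had medians of 10049, 10225, 10008 and 10008 in HF_HF, LF_HF, HF_LF and LF_LF hearts. Suclg2, the GTP-specific beta subunit, had medians of 1281, 1339, 1234 and 1298. In offspring of LF-fed dams their log2 fold changes were 0.09 and 0.07 (limma, adjusted p = 0.239 and 0.547). All 10 LF_HF hearts lay above the LF_LF median of Suclg1. The dimmest Suclg1 probe, at a mean intensity of 105, had 0.28 ± 0.13 there (SE; limma, adjusted p = 0.218). The Suclg1 probe at 4040 had 0.03, and the dimmer Suclg2 probe had -0.11 (limma, adjusted p = 0.732 and 0.521).

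Succinate dehydrogenase is complex II of the respiratory chain. Sdhb carries its iron-sulfur clusters, and Sdhc and Sdhd anchor it in the inner membrane. Sdhb had medians of 7052, 7369, 6885 and 6741 in HF_HF, LF_HF, HF_LF and LF_LF hearts, and its post-weaning estimate in offspring of LF-fed dams was 0.15 ± 0.06 (SE; limma, adjusted p = 0.138). Sdhd had a lowest, median and highest intensity of 679.5, 1579 and 2323 in HF_HF hearts, against 1339, 2161 and 2416 in LF_HF hearts. HF_LF hearts ran from 868.1 to 2288 around 1578 and LF_LF hearts from 682.8 to 2309 around 1488. As for Dld, it was the low values that LF_HF hearts lacked. The log2 fold change of Sdhd was -0.39 ± 0.18 in HF_HF against LF_HF hearts (limma, adjusted p = 0.421) and 0.54 ± 0.21 in LF_HF against LF_LF hearts (limma, adjusted p = 0.141). Sdhc, the other anchor, had medians of 5777, 5642, 5623 and 6030, and its estimate in LF_HF against LF_LF hearts was negative at -0.11 ± 0.10 (limma, adjusted p = 0.531).

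Fumarase, encoded by Fh1, had medians of 5570, 5739, 5557 and 5680 in HF_HF, LF_HF, HF_LF and LF_LF hearts. The malate dehydrogenases of the cytosol and the matrix are encoded by Mdh1 and Mdh2. Mdh1 had medians of 1836, 1970, 1970 and 1905 and Mdh2 of 5194, 5647, 5328 and 5469 in the same order. The post-weaning estimate of Mdh2 in offspring of LF-fed dams was 0.15 ± 0.10 (SE; limma, adjusted p = 0.358), and the adjusted p of its other 3 pairs of groups was 0.629 to 0.996. Got1 and Got2, the aspartate aminotransferases of the cytosol and the matrix, were level across the diets. Got1 had medians of 627.6, 616.9, 601.4 and 639.0 and Got2 of 12249, 12718, 12364 and 13048, and the 8 log2 fold changes of the pair lay between -0.06 and 0.0046. For Got2 the SEs were 0.05 to 0.06 (limma, adjusted p = 0.685 to 0.996).

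The shuttle's carriers exchange malate for 2-oxoglutarate (Slc25a11) and aspartate for glutamate (Slc25a12 and Slc25a13). Slc25a11 had medians of 2133, 2132, 2200 and 2265 in HF_HF, LF_HF, HF_LF and LF_LF hearts. At this probe its maternal effect averaged over the post-weaning diets was -0.06 (limma, adjusted p = 0.862). Its other probes, at mean intensities of 2196 and 709, had -0.17 ± 0.06 and -0.12 ± 0.05 there (SE; limma, adjusted p = 0.25 and 0.288). Slc25a12, the aspartate-glutamate carrier that prevails in heart, had medians of 796.9, 736.4, 746.2 and 788.8, and its log2 fold changes ran from -0.04 to 0.08, with SEs of 0.05 to 0.08 (limma, adjusted p = 0.637 to 0.996). In HF_HF against HF_LF hearts Slc25a12 (0.08) and Idh3g (0.07) had the smallest p after Sucla2, with adjusted p of 0.846 and 0.805 in limma. Slc25a13 was dimmer. Its lowest, median and highest intensities were 106.9, 140.9 and 175.1 in HF_HF hearts, against 140.5, 163.9 and 185.8 in LF_HF hearts, a log2 fold change of -0.21 ± 0.08 (SE; limma, adjusted p = 0.334). HF_LF and LF_LF hearts had medians of 146.1 and 141.6. Slc25a10, which exchanges dicarboxylates for phosphate, had medians of 113.4, 116.6, 114.3 and 119.9 in the 4 groups.

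Among the anaplerotic genes, Pcx encodes pyruvate carboxylase, which makes oxaloacetate. Its probe exceeded the array median in 30 of 40 hearts. Lowest, median and highest intensities were 70.3, 80.9 and 93.3 in LF_HF hearts, against 78.6, 92.1 and 158.1 in LF_LF hearts, and the log2 fold change was -0.25 ± 0.10 (SE; limma, adjusted p = 0.17). HF_HF hearts ran from 69.7 to 119.3 around 80.9 and HF_LF hearts from 73.1 to 139.1 around 85.2. Glutamate dehydrogenase, encoded by Glud1, had medians of 478.9, 513.1, 497.4 and 522.9, and its 4 log2 fold changes lay between -0.09 and 0.01, with SEs of 0.06 to 0.07 (limma, adjusted p = 0.599 to 0.996). The mitochondrial malic enzymes Me2 and Me3 were near the array median. Me2 had medians of 80.3, 79.3, 82.1 and 84.4, and Me3 ranged from 62.5 to 75.2 over all hearts.

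Genes at the entries and exits of the cycle were listed for comparison, and 22 of 35 were tested. With the post-weaning effect averaged over the dams, 3 of the 22 fell and 0 rose, while 3.96% of all tested probes fell and 3.53% rose. Abat, the transaminase of gamma-aminobutyrate, fell by 0.51 on the log2 scale (limma, adjusted p = 0.0013). Aldh5a1, which turns its product into succinate, fell by 0.14 (limma, adjusted p = 0.0433), and Gpd2, the mitochondrial enzyme of the glycerol phosphate shuttle, fell by 0.39 (limma, adjusted p = 0.0441). Abat also fell by 0.55 in HF_HF against HF_LF hearts (limma, adjusted p = 0.0187). The citrate carrier Slc25a1 and the ATP citrate lyase gene Acly had estimates of -0.59 and -0.52 (limma, adjusted p = 0.0817 and 0.0704). The median of the 22 genes was -0.0079, against 0.04 for the 27 genes of the cycle. Of 78 nuclear genes of respiratory complexes I, III, IV and V, 5 rose and 0 fell in this comparison, beside the same shares of all probes, and their median was 0.03. The mean of the adipocyte score, the mean log2 level of 6 fat cell genes relative to their medians over the hearts, was 0.38 in HF_HF and -0.08 in LF_HF hearts, against 0.54 in HF_LF and 0.54 in LF_LF hearts. Its part in these 3 calls was not tested.

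Some genes of the cycle varied together from heart to heart within the groups. To describe this, log2 values were centred on the mean of each group within each set of arrays, and hearts were permuted within these strata. Of 351 pairs among the 27 genes, 75 were positively and 32 negatively correlated at an adjusted permutation p under 0.05. The share among pairs of other tested genes was not computed, so these counts are not particular to the cycle. Correlations with r above 0.7 were found for 17 pairs, and r below -0.7 for 0. The median r of the 351 pairs was 0.07.

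Dld, Sdhd, Idh2 and Sucla2 formed the tightest block, chosen after the values were seen. Over the 40 hearts the 6 pairs among them had r of 0.84 to 0.94 and Spearman's rho of 0.81 to 0.92, with a permutation p of 1e-05 for each, the smallest that 100000 permutations can give (adjusted over the 351 pairs, p = 0.000234 for r and 0.000251 for rho). In the set of 25 arrays r was 0.74 to 0.91, in the set of 15 arrays 0.91 to 0.96, and without the 2 hearts farthest from the median 0.82 to 0.92. They do not share a complex: Dld serves the 2-oxoglutarate complex, Sdhd complex II and Sucla2 the succinyl-CoA ligase.

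Promoters of the cycle's genes were read in the RefSeq annotation of GRCm38.p6, from 250 bases before to 50 after each start. Promoters were held for 27 of the 30 genes. Motifs known from the control of mitochondrial genes were sought on both strands. The element of the oestrogen-related receptors, TCAAGGTCA, was found in 1 of 34 promoters of the cycle's genes (2.94%), against 139 of 32851 promoters of all genes (0.423%). The promoter that held it was that of Sdhd, shown here as the 30 bases from position 21 to 50 after the start, at chr9:50603800-50603829 on the minus strand, with the element in capitals as its reverse complement at positions 37 to 45.
Sdhd: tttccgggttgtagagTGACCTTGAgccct
Neither the palindromic element of nuclear respiratory factor 1 nor the DR1 repeat bound by PPAR receptors was found in any of the 34 promoters. They occur in 0.971% and 0.0396% of all promoters. Thus, among the 27 genes with a promoter held, Sdhd was the only 1 with any of these 3 motifs in this window.

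The block followed a component of variation that ran through the whole array. This array component was the first principal component of all tested probes other than those of the 30 genes, centred as above and signed so that Dld is positive, and it was added after the values had been seen. It took 19.8% of the variance, against 13.6% for the next component. The 27 genes were each set against it, and 5 correlated positively and 5 negatively at an adjusted permutation p under 0.05. Many other tested probes must follow it too, since it was built from them. Their share was not computed, so these counts are not particular to the cycle. Dld had r = 0.89 and rho = 0.85 over 40 hearts (adjusted permutation p = 3.86e-05 for each), and r was 0.82 and 0.94 within the sets of arrays and 0.88 without the 2 hearts farthest from the median. Sdhd (r = 0.82, rho = 0.78), Sucla2 (r = 0.81, rho = 0.76) and Idh2 (r = 0.79, rho = 0.68) followed it too, with adjusted permutation p of 3.86e-05 to 0.000169. Glud1 was the fifth, with r = 0.48, which dropped to 0.29 without the 2 hearts farthest from the median. Slc25a11 (r = -0.88), Sdhc (r = -0.86), Idh3a (r = -0.75) and Got2 (r = -0.70) ran the opposite way, as did Idh3g (r = -0.53). Sdhc and Sdhd, the 2 anchors of 1 complex, were therefore negatively correlated with each other (r = -0.52, rho = -0.48, adjusted permutation p = 0.0212 and 0.0294 over 17 pairs).

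The mean of the array component was 0.09 in HF_HF, 0.38 in LF_HF, -0.07 in HF_LF and -0.41 in LF_LF hearts, each with an SD of 0.62 to 1.3. LF_LF hearts reached the lowest value of -3.01 and HF_HF hearts the highest of 1.90. With the component as a covariate, the post-weaning estimate in offspring of LF-fed dams was 0.22 for Dld, 0.20 for Sdhd and 0.07 for Idh2, against 0.67, 0.54 and 0.23 without it. For Sucla2 it was 0.27 against 0.45, and the averaged estimate was 0.21 against 0.34 (limma, adjusted p = 0.0371 with the covariate).

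**Figure D3:**
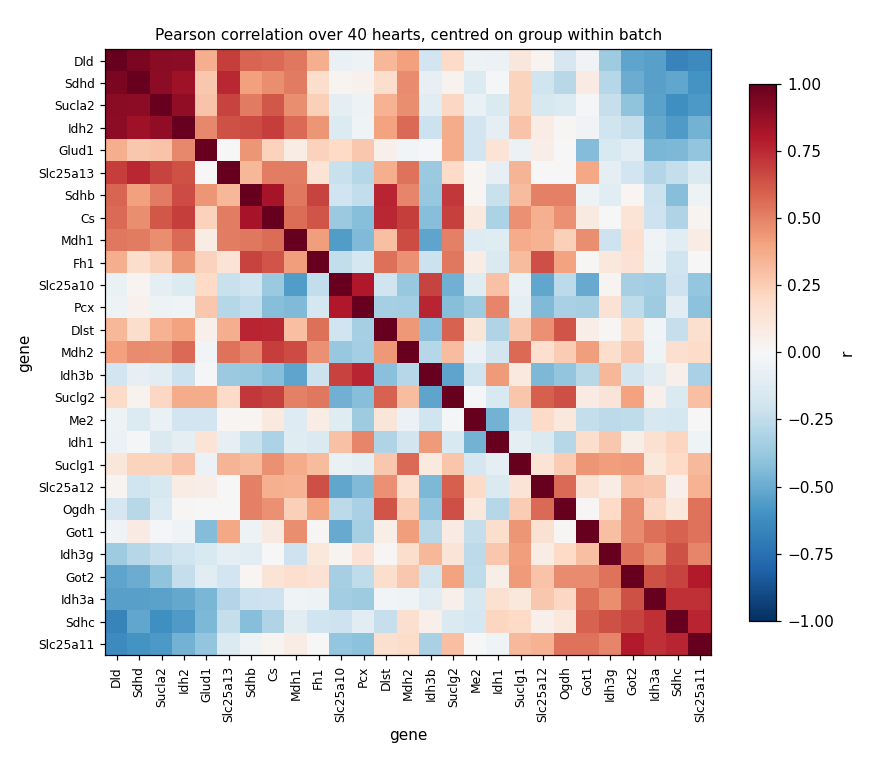
Pearson correlation (colour, from -1 to 1) between the 27 tested genes over 40 hearts, after centring on group within each set of arrays, with genes on both axes ordered by their correlation with the array component. The dark corner at the upper left holds Dld, Sdhd, Sucla2 and Idh2 with r of 0.84 to 0.94, and Slc25a11, Sdhc, Idh3a and Got2 stand at the opposite end.

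How a gene followed the array component depended on its probe. Of the 29 measured genes 9 had more than 1 probe, and some probes of 1 gene disagreed. The Mdh1 probe in use, at a mean intensity of 1882, had r = 0.27 with the component, while the other probes of Mdh1, at 307 and 119, had r = 0.74 and 0.88. For Suclg1 the probe in use had r = -0.09, and the probes at 4040 and 105 had r = -0.48 and 0.78. For Suclg2 r was 0.02 with the probe in use and -0.79 with the dimmer one. Glud1 turned its sign, with r = 0.48 for the probe in use and -0.66 for the other, and these 2 probes correlated at r = -0.15. For Slc25a11 the value of -0.88 fell to -0.28 and -0.22 with its other probes. Sdhb was at 0.43, with 0.50 and 0.81 at its other probes. Dld, Sdhd, Idh2 and Sucla2 had 1 probe each, so no second probe bears on them. The dimmer probes also gave higher post-weaning estimates for some genes and lower ones for others. In offspring of LF-fed dams, the probe of Mdh1 at 307 had a log2 fold change of 0.30 ± 0.11 (SE; limma, adjusted p = 0.109), and the dimmest probe of Sdhb had 0.39 ± 0.15 (limma, adjusted p = 0.141). The dimmer Idh3g probe, at 4259, had -0.17 ± 0.07 there, against -0.06 at the probe in use (limma, adjusted p = 0.144 and 0.556). For Glud1 the dimmer probe had -0.08, against 0.01 (limma, adjusted p = 0.45 and 0.944).

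Pcx, Slc25a10 and Idh3b followed the adipocyte score instead. Against that score Pcx had r = 0.85 and rho = 0.70 over 40 hearts (adjusted permutation p = 0.00054 and 0.00243, over 27 genes), and r was 0.87 and 0.64 within the sets of arrays and 0.80 without the 2 hearts farthest from the median. Slc25a10 had r = 0.74 and rho = 0.58 (adjusted permutation p = 0.00126 and 0.0081). Idh3b had r = 0.71 and rho = 0.48 (adjusted permutation p = 0.00126 and 0.0353), with r = 0.80 in the set of 25 arrays and 0.05 in the set of 15. The LF_LF heart with an Idh3b intensity of 1718 had the highest Pcx intensity of all hearts, 158.1, and an adipocyte score of 2.25. The HF_LF heart with an Idh3b intensity of 1428 had a Pcx intensity of 137.5 and a score of 2.46.

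Of the adipocyte list 6 of 7 genes were measured. Adipoq ranged from 66.8 to 3475 and Car3 from 64.0 to 3388, while Retn exceeded the array median in 0 of 40 hearts and Plin1 in 3. The score ranged from -0.30 to 2.64 in HF_HF, -0.42 to 0.53 in LF_HF, -0.31 to 2.46 in HF_LF and -0.32 to 2.25 in LF_LF hearts. LF_HF was thus the group without high scores. With the score as a covariate the post-weaning estimate in offspring of LF-fed dams was -0.10 for Idh3b and -0.07 for Pcx, against -0.33 and -0.25 without it. Genes that ran against the score were Got1 (r = -0.57), Idh3a (r = -0.51), Slc25a11 (r = -0.50) and Slc25a12 (r = -0.47), with adjusted permutation p of 0.00263 to 0.0214 for r.

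**Figure D4:**
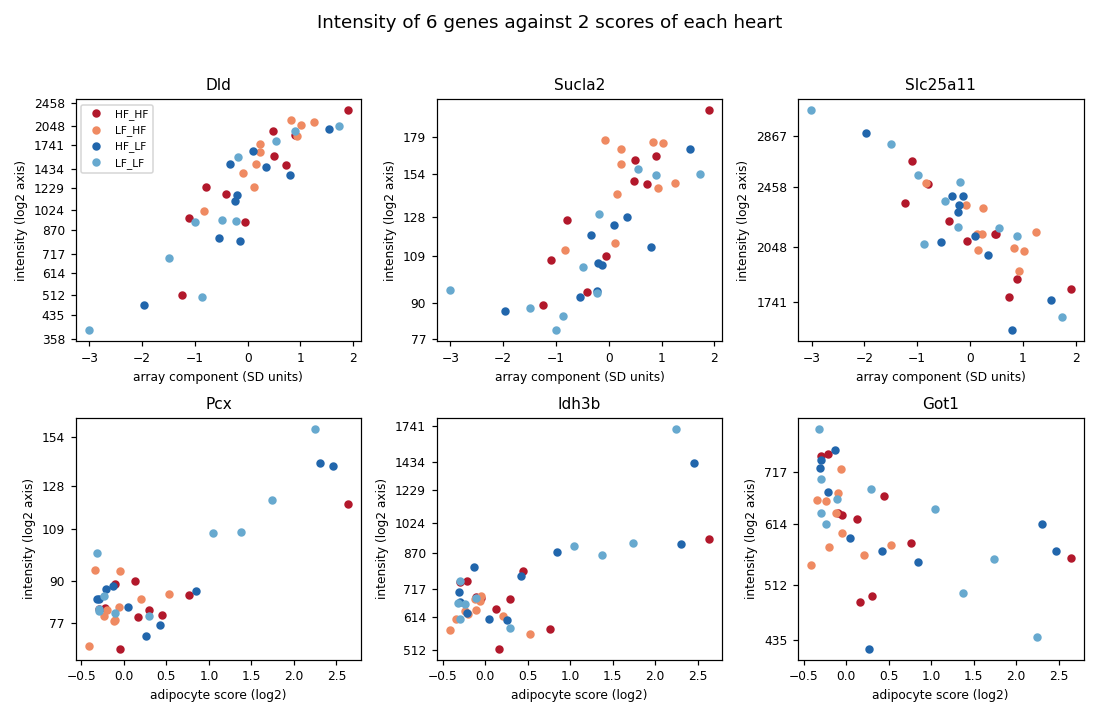
Intensity on a log2 axis of Dld, Sucla2 and Slc25a11 against the array component in SD units (upper row) and of Pcx, Idh3b and Got1 against the adipocyte score in log2 units (lower row), 1 point for each of the 40 hearts, coloured by group. Dld is higher and Slc25a11 lower in hearts with a higher component (r = 0.89 and -0.88), and the hearts with a score above 1 hold the highest Pcx values.

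Among partners within a complex or shuttle, 17 pairs were compared, of which 5 were positively and 1 negatively correlated at an adjusted permutation p under 0.05 for r. Mdh1 and Mdh2 were the closest over 40 hearts, with r = 0.65 and rho = 0.61 (adjusted permutation p = 0.00017 and 0.00297) and r = 0.38 and 0.79 within the sets of arrays. Ogdh and Dlst had r = 0.63 and rho = 0.64 (adjusted permutation p = 0.00323 and 0.00272), and r was 0.59 without the 2 hearts farthest from the median. Got1 with Got2 had r = 0.47, Idh3a with Idh3g 0.46 and Mdh1 with Got1 0.46 (adjusted permutation p = 0.0321, 0.0212 and 0.0147). Sdhc with Sdhd was negative, as given above. Ogdh and Dld, parts of the same complex, had r = -0.16 and rho = -0.09 (adjusted permutation p = 0.523 and 0.663). Idh3a and Idh3b had r = -0.12 over all hearts, with -0.30 in the set of 25 arrays and 0.66 in the set of 15, so that this relation did not hold between the sets. Across complexes, Cs and Sdhb had r = 0.83 and rho = 0.86 (adjusted permutation p = 0.000234 and 0.000251 over 351 pairs), with 0.83 and 0.84 within the sets of arrays.

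The score of the 7 cardiomyocyte markers correlated with 15 of the 27 genes at an adjusted permutation p under 0.05, positively for 12 and negatively for 3. The share of all tested genes that did so was not computed. Cs had r = 0.78 and rho = 0.67 (adjusted permutation p = 0.00027 and 0.00135), Sdhb r = 0.70 and Mdh1 r = 0.69. Idh2 (r = 0.67), Dld (r = 0.66), Sucla2 (r = 0.63) and Sdhd (r = 0.60) followed the score too (adjusted permutation p = 0.000864 to 0.00447). The mean score was -0.03 in HF_HF, 0.03 in LF_HF, -0.02 in HF_LF and -0.08 in LF_LF hearts. LF_HF hearts, with the highest Cs median, thus also had the highest mean score. The markers did not all move together: Pln, Mybpc3 and Tnni3 had their highest median in LF_HF hearts, but Ryr2, Actc1 and Myl2 in other groups. Myh6 had its lowest median in LF_HF hearts, 21600 against 22616.5 to 23227 in the other groups. The part of this score in the diet estimates of Cs, Sucla2 and the other genes was not tested.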

How the data were processed

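Hearts of 40 mice were measured on 1 array each. The authors deposited linear fluorescence intensity values from BeadStudio, quantile-normalised across all hearts and without background subtraction. The sources used here do not give its version. Sorted values of any 2 arrays differed by at most 1 unit. Detection p-values were not used, and the number of arrays limits the precision.

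Intensities were converted to log2. Of 25697 probes, 12645 exceeded the array median on at least 20 of 40 arrays and were tested. Symbols came from the platform annotation, updated through Entrez identifiers of GRCm38.p6, and the probe of the highest mean stood for a gene. Pairs of groups were fitted on their own 20 arrays, averaged effects and the interaction on all 40, with limma 3.58.1 in R 4.3.3 (trended eBayes) and Benjamini-Hochberg adjustment over all tested probes. Fold changes are HF over LF. Replicates were single animals, and the fits left out the cage, so that p-values take animals of 1 cage as independent. A tissue score was the mean log2 level of its markers relative to their medians over the hearts, and 15 hearts exceeded 1.5 in a score of liver, skeletal muscle, pancreas or fat. The sets of arrays were split at the largest gap on the first principal component of the untested probes. Correlations used 100000 two-sided permutations in numpy 2.4.6 under Python 3.11.15. Calls were tested on simulated data.

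Members and lists were chosen with earlier results of these data known. All members were named, and in full those that passed, the 3 smallest p of each pair of groups and a set of main enzymes. Other genes given in full were chosen after their values were seen. Alternatives covered filter, background, normalisation, weights, array set, cage, tissue scores and left-out animals or cages. Proteins were not compared here.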

Additional observations from a re-analysis of the deposited data

Results flagged for a closer look

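Among 116 sets of 10 hearts, 1 for each of 29 genes in each group, 10 had a highest or lowest heart whose gap to the rest, over the range, exceeded Dixon's critical value at 95%. Chance marks about 1 in 20 such sets. Of these, 3 came from animal 122 of HF_HF, which also had the highest array component (1.90): Sdhc was low at 3732 (next 5352), Idh3g low at 6930 (next 7776) and Suclg2 high at 1692 (next 1352). A further 2 came from animal 101 of LF_LF, which had the lowest cardiomyocyte score (-0.38) and a liver score of 3.97: Cs was low at 3822 (next 4783) and Mdh2 low at 3244 (next 4404). Another 3 came from hearts with high adipocyte scores: Idh3b was high at 1428 in animal 177 of HF_LF and at 1718 in animal 133 of LF_LF, and Pcx was high at 119.3 in animal 183 of HF_HF (score 2.64). The others were Mdh1, low at 1198 in animal 124 of HF_HF, and Suclg1, high at 12249 in animal 97 of LF_HF. The part of these scores in the outlying values was not tested.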

How the results depend on the processing

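The counts of members called and their medians were recomputed in 18 other settings for each pair of groups and in 17 for the averaged effects and the interaction. Covariates for the adipocyte score and the array component were chosen after seeing the data. Averaged over the dams, the post-weaning count of 1, Sucla2, was 0 with no filter on dim probes and with array weights. It was also 0 within each set of arrays and with the 15 hearts of high tissue scores set aside. The log2 fold change of Sucla2 was then 0.34, 0.29, 0.32, 0.36 and 0.37 (limma, adjusted p = 0.0568, 0.0504, 0.107, 0.622 and 0.116). Without those hearts the median of the members was -0.084 in HF_LF against LF_LF hearts and -0.0102 in LF_HF against LF_LF hearts. When single animals or cages were left out, the count in LF_HF against LF_LF hearts ranged from 0 to 1: Sucla2 passed without animals 15, 133 or 211 of LF_LF or 99 of LF_HF (log2 fold change 0.49 to 0.50; limma, adjusted p = 0.0324 to 0.0481). All other counts and medians kept within 1.5 times or 1 SD between hearts (0.08). Of 6250 values of single genes 9 crossed the threshold, all of Sucla2, and 0 reversed a call. Among values without a call 475 changed sign. Over all probes the averaged post-weaning count of 947 was 624 with no filter and 326 for cage means. It was 4 within the set of 15 arrays and 210 without the hearts of high tissue scores. For LF_HF against LF_LF hearts the count of 344 was 146 with no filter, 4 for cage means, 63 and 0 within the sets, 3 without those hearts, and 737, 213 and 228 with the atrial score, the adipocyte score and the array component as covariates. For HF_HF against HF_LF hearts 109 became 19 for cage means, 22 and 1 within the sets, 19 without those hearts, 183 with array weights and 165 with the component. The averaged maternal count of 49 was 0 for cage means, 25 and 0 within the sets, 4 without those hearts, 115 with array weights and 126 with the component. The count of 5 for HF_LF against LF_LF hearts ranged from 0, as for cage means, to 23 with the atrial score, and that of 0 for HF_HF against LF_HF hearts from 0 to 9 with array weights. Replicate numbers name single animals and pair none, so animals were not paired. A paired test within the 5 cages that gave offspring to both diets was not run. Cages of dams do tie animals together: with cage as a random block or with cage means the averaged estimate of Sucla2 was 0.34 in both (limma, adjusted p = 0.033 and 0.0107). The low intensity of Sucla2, Pcx, Me2, Slc25a10 and Slc25a13 limits their fold changes, since background was not subtracted: with it subtracted the averaged estimate of Sucla2 was 0.71. The cause of these differences was not tested.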
